A study of Mus musculus with 6 samples.

Results

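A set of 10 genes of immature and transitional B cells and of their precursors was followed through the spleen B cell transcriptomes of this study. The members are Cd93, Cd24a, Rag1, Rag2, Vpreb1, Vpreb3, Igll1, Dntt, Sox4 and Myb, taken by name from the 35275 genes of the deposited table with gene names, and all 10 were found. The libraries came from C57BL/6 mice aged 6 to 8 weeks, wild type (WT) or carrying an altered CD40 ligand, CD40LΔ5. Mice of both genotypes had received sheep red blood cells, which provoke an antibody response that needs T cell help, and spleens were taken 8 days later. B cells were enriched with a magnetic pan-B kit, and 3 libraries per genotype were sequenced. Whether a library stands for a single mouse is not in the labels, so p-values measure the spread between libraries, which may be technical. The labels do not describe the CD40LΔ5 allele further. In such bulk samples, fewer cells of a type and less RNA per cell cannot be told apart.

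B cells arise in the bone marrow, where RAG1 and RAG2 cut immunoglobulin gene segments and terminal transferase, the product of Dntt, adds bases at the joints. A precursor that has joined a heavy chain displays it with the surrogate light chain, made of VpreB and lambda5, in place of a true light chain. Cells that then acquire a light chain leave for the spleen as transitional B cells, which carry CD93 (the AA4.1 antigen) and high CD24. Both surface proteins decline as the cells mature, and the recombination and surrogate light chain genes are shut off before that.

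The libraries held 24320080 to 27866611 reads on genes. B cell identity genes were abundant in all of them: Cd79a, a signalling chain of the B cell receptor, ranged from 1510.4 to 1999 FPKM (fragments per kilobase of gene length, scaled to the reads of the library), and Pax5, the factor that holds cells in the B lineage, from 171 to 211 FPKM. The libraries are grouped differently by 2 deposited sources. The authors' deposited table of means has a MUT column that is the average of CD40LΔ5 replicate 2 with WT replicates 1 and 2, and a WT column that is the average of WT replicate 3 with CD40LΔ5 replicates 1 and 3. For 4 of the 6 libraries the sources therefore give opposite genotypes. The gene of the altered protein, Cd40lg, which T cells express, measured 0.533, 0.428 and 0.203 FPKM in the WT libraries. In the CD40LΔ5 libraries it measured 0.118, 0.483 and 0.144 FPKM, so the label groups overlapped. Split instead by column of means, Cd40lg was wholly higher in MUT (0.428 to 0.533 FPKM) than in WT (0.118 to 0.203 FPKM). So were 8.84% of all genes above 0 and under 1 FPKM. The Cd40lg values rest on 4 to 17 reads per library, and a value per gene does not show an altered coding sequence. Each result below is given by the labels first and then by the table, and a library is always called by its label. Where values are listed by genotype they are in the order of replicates 1, 2 and 3.

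Members of the VpreB family differ widely in level here, and the close pair among them is hard to tell apart by reads, so their sequences are shown first. Vpreb1 and Vpreb2 are near copies: their coding sequences, of 429 bases each, are identical at 420 positions (97.9%) in the GENCODE transcripts of GRCm38. Vpreb3, whose protein resembles VpreB but is not part of the surrogate light chain, shares 48.6% of aligned positions with Vpreb1. The first 150 coding bases of the close pair follow, with capitals at the 3 bases that differ.
Vpreb1: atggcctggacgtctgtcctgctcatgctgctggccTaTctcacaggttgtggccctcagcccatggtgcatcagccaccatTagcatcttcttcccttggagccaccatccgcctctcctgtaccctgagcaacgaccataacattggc
Vpreb2: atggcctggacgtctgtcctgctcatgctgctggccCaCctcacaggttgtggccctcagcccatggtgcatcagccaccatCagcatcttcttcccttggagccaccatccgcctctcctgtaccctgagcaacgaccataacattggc
Of all stretches of 50 bases in the Vpreb1 transcript, 32.5% also occur in Vpreb2. Vpreb2 was listed at 0 reads in every library, where 3 reads would be 0.251 to 0.288 FPKM, close to the level of Vpreb1 itself. How reads that match both genes were counted is not given in the sources used here, so Vpreb1 and Vpreb2 values are uncertain.

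The promoters of Vpreb3, Vpreb1 and Igll1, the lambda5 gene, are shown because their genes lay far apart in level in the same libraries. Each runs from 250 bases before to 50 bases after the RefSeq start (GRCm38.p6), in the direction of the gene. RefSeq starts were available for 8 of the 10 genes, all but Cd93 and Cd24a. The deposited genes begin further upstream for Vpreb3 (75943057, plus strand) and Vpreb1 (16870843, minus strand). The windows of Vpreb3 and Vpreb1 therefore lie inside the deposited genes whose levels are compared. Capitals mark matches, on either strand, to the octamer ATTTGCAT bound by OCT proteins, to CCCNNGGG, the core of the EBF site, and to the E-box CAGNTG.
Vpreb3, chr10:75948050-75948349, plus strand: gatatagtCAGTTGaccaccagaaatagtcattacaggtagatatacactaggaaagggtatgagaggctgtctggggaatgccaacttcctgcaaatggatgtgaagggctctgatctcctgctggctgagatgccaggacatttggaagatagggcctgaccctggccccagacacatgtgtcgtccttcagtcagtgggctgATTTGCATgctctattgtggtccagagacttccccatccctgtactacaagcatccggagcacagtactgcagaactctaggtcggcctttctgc
Vpreb1, chr16:16869206-16869505, minus strand: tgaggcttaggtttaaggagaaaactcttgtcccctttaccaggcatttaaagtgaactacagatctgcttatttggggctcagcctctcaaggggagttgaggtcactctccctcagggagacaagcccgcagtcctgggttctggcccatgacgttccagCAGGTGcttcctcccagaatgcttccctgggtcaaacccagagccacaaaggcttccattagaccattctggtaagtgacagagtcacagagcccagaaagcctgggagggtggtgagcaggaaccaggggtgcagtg
Igll1, chr16:16863936-16864235, minus strand: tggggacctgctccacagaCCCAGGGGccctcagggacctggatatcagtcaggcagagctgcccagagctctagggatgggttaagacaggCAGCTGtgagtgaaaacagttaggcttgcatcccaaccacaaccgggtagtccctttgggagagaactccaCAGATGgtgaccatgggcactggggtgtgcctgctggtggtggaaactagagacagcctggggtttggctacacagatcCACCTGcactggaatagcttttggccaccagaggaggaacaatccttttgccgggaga
The octamer starts 45 bases before the RefSeq start of Vpreb3, which lies within the deposited gene. It was not matched in the other 7 windows, and 1.74% of 32851 promoters hold it. The EBF core was matched only in the Igll1 window, 231 bases before the start, against 13.7% of all promoters. E-boxes, which 51.4% of promoters hold, were matched in 7 of the 8 windows, all but that of Dntt. A match is a run of letters and not a measured site.

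In level, the 10 genes fell into an abundant pair above 100 FPKM, a middle group and 5 genes under 1 FPKM, in every library. Means over the 6 libraries ran from 359 FPKM for Cd24a through 118 for Vpreb3, 7.53 for Myb, 6.13 for Cd93 and 2.69 for Sox4 to 0.541 for Rag1, 0.494 for Dntt, 0.261 for Vpreb1, 0.0787 for Igll1 and 0.0361 for Rag2. Of the 9 neighbouring pairs in this order, the ranges of 3 overlapped: Myb with Cd93, Rag1 with Dntt, and Igll1 with Rag2. The ranges of Dntt and Vpreb1 and those of Vpreb1 and Igll1 were only just apart, with 0.322 against 0.314 FPKM and 0.212 against 0.183 FPKM at their nearest. The members therefore differed widely in level. A high level alone does not show immature cells, since Vpreb3 stays on in mature B cells. Cd24a and Vpreb3 were abundant, while the genes of recombination and of the surrogate light chain, which define precursors, were under 1 FPKM. Among these, Rag1 had 564 reads and Dntt 167 over the 6 libraries, and Rag2, Vpreb1 and Igll1 had 1 to 11 reads per library. Set against Cd79a, at a mean of 1731 FPKM, Cd24a came to 20.7% and Rag1 to 0.0313%.

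**Figure D1:**
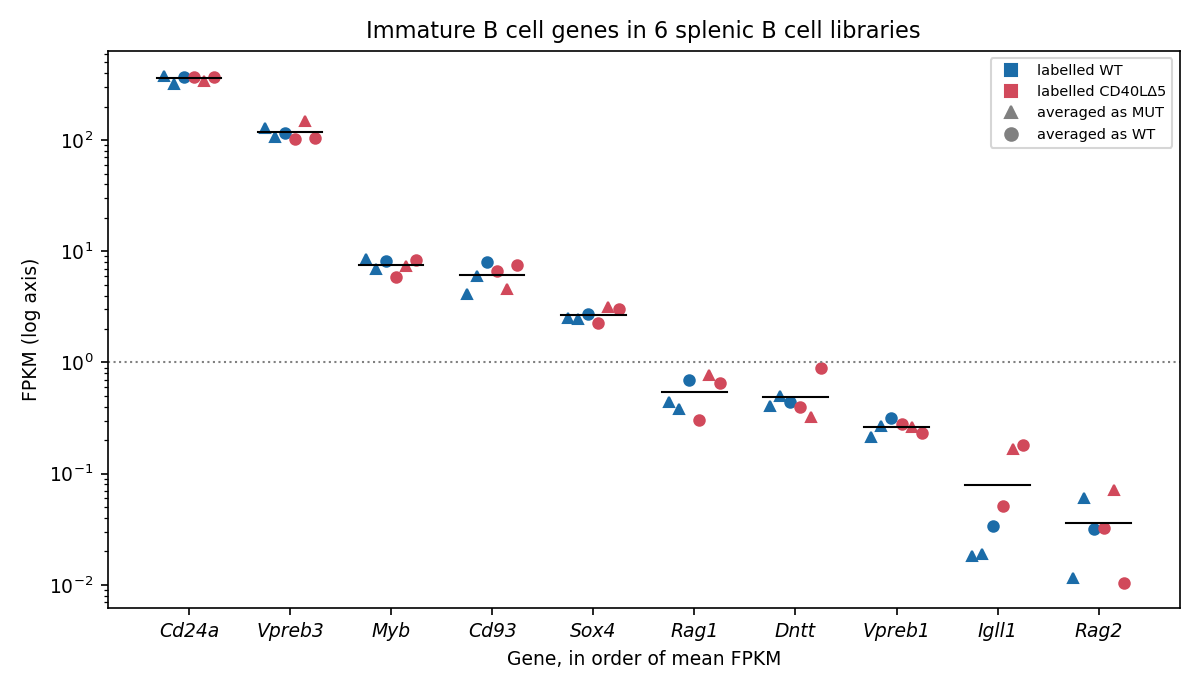
FPKM (log axis) of the 10 genes in each of the 6 libraries, with colour for the label, shape for the column of the table of means in which a library was averaged, and a bar at the mean; the dotted line is 1 FPKM. Cd24a and Vpreb3 lie above 100 FPKM, while Rag1, Dntt, Vpreb1, Igll1 and Rag2 lie below 1 FPKM in all libraries.

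Cd24a encodes CD24, a small lipid-anchored surface protein that is highest on immature B cells and also present on red cell precursors. The gene lies on the plus strand of chromosome 10, from 43579169 to 43584262 (coordinates here are as deposited, those of GRCm38). It was the steadiest of the set and ranked 191 of all genes by mean level. Cd24a measured 377, 323 and 371 FPKM under the WT label and 368, 342 and 372 FPKM under CD40LΔ5. The groups overlapped by either source, and the highest library was 1.17 times the lowest. The log2 difference, on the log2(FPKM + 1) scale used throughout, was 0.02 ± 0.11 (SE) for CD40LΔ5 minus WT and -0.10 ± 0.09 for MUT minus WT. Neither passed the test (limma adjusted p = 1.00 and 0.650), and the sign by the labels turned when libraries were rescaled by median-of-ratios factors (-0.01), and the sign by the table under quantile normalization (0.12). Erythroid genes, which mark cells that also carry CD24, summed to 375 to 1309 FPKM and were lowest in CD40LΔ5 replicate 1, where Cd24a was at 368 FPKM. Their part in the Cd24a level was not tested.

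Cd93 encodes a C-type lectin-like receptor that marks transitional B cells and is found again on plasma cells, and also on endothelium and early progenitors. The gene lies on the minus strand of chromosome 2, from 148436640 to 148443563. It spread more than the other tested genes of the set. Cd93 measured 4.11, 6.02 and 8.02 FPKM under the WT label and 6.60, 4.54 and 7.46 FPKM under CD40LΔ5. By the labels the groups overlapped fully, with WT replicate 1 lowest and WT replicate 3 highest of all. The log2 difference by the labels was 0.05 ± 0.24 (limma adjusted p = 1.00).

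By the table of means Cd93 was lower in every library averaged as MUT, at 4.89 ± 1.00 FPKM, than in every library averaged as WT, at 7.36 ± 0.718 FPKM (SD, n = 3). The log2 difference was -0.51 ± 0.14 (SE), with an unadjusted limma p of 0.00720 and an adjusted p of 0.343, so it did not pass over all genes. With any 1 library left out it ran from -0.65 to -0.42, with adjusted p of 0.115 to 0.845. Of the 5 tested genes of the set, Cd93 was thus the only one whose groups did not overlap in a downward direction by the table, where 4.79% of all tested genes were such, and none was apart upward, against 12.1% of all tested genes. By the labels none of the 5 was apart in either direction, where 2.98% of tested genes were wholly higher and 1.32% wholly lower.

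The libraries lowest in Cd93 were also lowest in several gene lists and highest in others. WT replicate 1 and CD40LΔ5 replicate 2, lowest for Cd93, were lowest for the summed plasma cell list, at 1061 and 865 FPKM against 2107 to 4889 FPKM in the other 4 libraries. They were lowest for the germinal centre list too, at 70.3 and 97.6 FPKM against 144 to 260 FPKM. So they were for the cell cycle list, at 282 and 276 FPKM against 399 to 492 FPKM. The list of V(D)J joining and end repair partners was also lowest there, at 325 and 327 FPKM against 355 to 434 FPKM. Both libraries were highest for the mature follicular list, at 3757 and 3760 FPKM against 3227 to 3554 FPKM. They were also highest for the B cell identity, early B lineage, and endothelium and platelet lists. By the labels, 10 of 10 plasma cell genes were lower in CD40LΔ5 (median log2 difference -0.36), 9 of 11 germinal centre genes were higher (0.08) and 14 of 20 cell cycle genes were lower (-0.05), with 0 called in each. By the table, 10 of 10 plasma cell genes, 10 of 11 germinal centre genes and 19 of 20 cell cycle genes had lower values in MUT (median log2 difference -0.84, -1.12 and -0.61), with 0 called in each. The order was not the same throughout: CD40LΔ5 replicate 1 stood at 6.60 FPKM of Cd93 with a plasma cell sum of 2107 FPKM, below WT replicate 2 with 6.02 FPKM and 4751 FPKM. The endothelium and platelet list summed to 71.3 to 89.2 FPKM, and 2 of its 10 genes reached the test. Pecam1, which B cells, platelets and endothelium are known to express, was at 66.6 to 83.0 FPKM, Cdh5 at 0.444 to 0.924 FPKM, and Emcn was at 0 in 4 libraries. Granulocyte precursor genes summed to 98.5 FPKM in WT replicate 3 and 94.9 FPKM in CD40LΔ5 replicate 3, the libraries highest for Cd93. Elsewhere they summed to 10.5 to 15.1 FPKM. Of 8 tested genes of that list, 5 were higher by the labels (median log2 difference 0.05) and 7 lower by the table (-1.38), with 0 called in both. The part of all these cells in the Cd93 values was not tested.

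**Figure D2:**
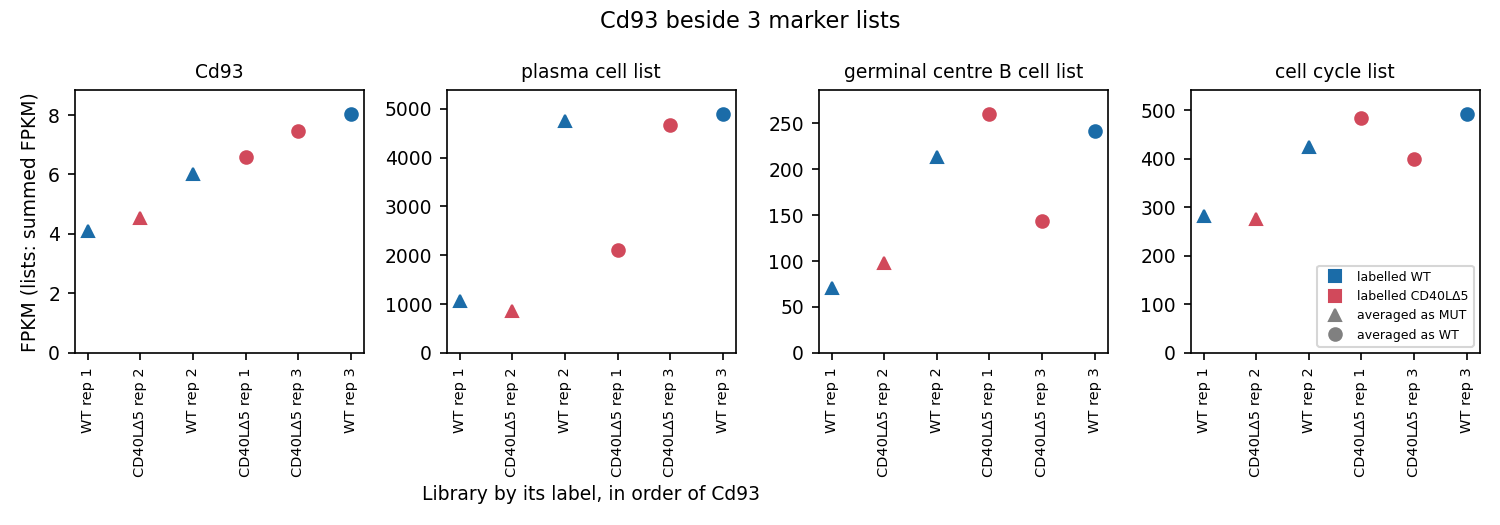
Cd93 (FPKM) and the summed FPKM of the plasma cell, germinal centre and cell cycle lists in each library, with libraries in order of their Cd93 value; colours and shapes are as in the plot of levels. WT replicate 1 and CD40LΔ5 replicate 2 are the lowest in all 4 panels, and CD40LΔ5 replicate 1 has a plasma cell sum of 2107 FPKM, below that of WT replicate 2 with less Cd93.

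Rag1 encodes the subunit of the recombinase that binds and cuts the signal sequences. Its levels separated the libraries along neither grouping. Rag1 measured 0.439, 0.380 and 0.691 FPKM under the WT label and 0.306, 0.774 and 0.657 FPKM under CD40LΔ5. In reads these are 74, 61 and 126 for the first label and 55, 127 and 121 for the second. WT replicate 3 and CD40LΔ5 replicates 2 and 3 were thus above the other 3 libraries. On the FPKM scale the exact 95% Poisson intervals, which cover counting error only, met at the nearest pair: that of WT replicate 1 reached 0.551 FPKM and that of CD40LΔ5 replicate 3 began at 0.545 FPKM. Each label and each table set held libraries of both kinds, and the groups overlapped: 0.579 ± 0.243 FPKM for CD40LΔ5 and 0.503 ± 0.165 for WT (SD, n = 3; exact two-sided permutation p = 0.8), and 0.531 ± 0.213 for MUT and 0.551 ± 0.213 for WT by the table (exact permutation p = 1.0). With 3 against 3, this test cannot give a p under 0.1.

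Rag1 lies within the span of B230118H07Rik on the same strand of chromosome 2 (101638282 to 101649501), and 80 of its 6608 exonic bases (1.21%) belong to both. B230118H07Rik held 18, 8 and 37 reads in WT replicates 1, 2 and 3 and 6, 14 and 32 reads in CD40LΔ5 replicates 1, 2 and 3. It was high in WT replicate 3 and CD40LΔ5 replicate 3, as Rag1 was, but not in CD40LΔ5 replicate 2. Granulocyte precursor genes were also high in those 2 libraries, at 98.5 and 94.9 FPKM in sum against 10.5 to 15.1 FPKM elsewhere, with 15.1 FPKM in CD40LΔ5 replicate 2. T and natural killer cell genes summed to 276, 211 and 195 FPKM under the WT label and 229, 243 and 242 FPKM under CD40LΔ5. Cd2 alone made up 117 to 183 FPKM of these sums. Of the 13 tested genes of that list, 4 were higher by the labels (median log2 difference -0.07) and 11 by the table (0.33), with 0 called in both. The part of these cells in the Rag1 values was not tested.

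Rag2, the partner subunit, which is needed with RAG1 for cutting, was near the detection limit. It lies beside Rag1 on chromosome 2, on the plus strand (101624718 to 101632529). Rag2 measured 0.0114, 0.0600 and 0.0318 FPKM under the WT label and 0.0322, 0.0706 and 0.0105 FPKM under CD40LΔ5. A library had 1 to 6 Rag2 reads, 19 in all, and no difference could be detected at this depth (exact permutation p = 0.9 by the labels and 0.3 by the table). Some 6.07% of Rag2 exonic bases overlap B230118H07Rik on the opposite strand, and how the counting treated strand is not given in the sources used here.

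Dntt encodes terminal deoxynucleotidyl transferase, which adds untemplated bases at V(D)J joints and is absent from mature B cells. The gene is on the plus strand of chromosome 19 (41029275 to 41059523). Dntt measured 0.405, 0.502 and 0.443 FPKM under the WT label and 0.398, 0.322 and 0.894 FPKM under CD40LΔ5. CD40LΔ5 replicate 3 held 53 reads and the other 5 libraries 17 to 26 reads. On the FPKM scale the exact 95% Poisson interval of that library began at 0.669 FPKM and overlapped that of WT replicate 2, which reached 0.736 FPKM. The groups overlapped by either source, with 0.538 ± 0.311 FPKM for CD40LΔ5 and 0.450 ± 0.0491 for WT (SD, n = 3; exact permutation p = 1.0), and p = 0.5 by the table in the same exact test. CD40LΔ5 replicate 3 decided the sign by the labels: the difference of means was 0.0877 FPKM with it and -0.0904 FPKM without it. That library was also the highest in the mature neutrophil list, at 563 FPKM in sum against 54.0 to 286 elsewhere. Of the 9 tested genes of that list, 9 were higher by the labels (median log2 difference 0.20) and 7 lower by the table (median -1.27), with 0 called in both. In CD40LΔ5 replicate 3 the stem and progenitor genes summed to 241 FPKM, within the range of the other libraries (188 to 383 FPKM). Ly6a, which activated lymphocytes also express, made up 233 FPKM of that sum. Kit and Cd34 were highest in this library, at 3.42 and 0.876 FPKM, and the other genes of the list were highest elsewhere. The part of these cells in the Dntt value was not tested.

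Igll1 encodes lambda5, the constant-like part of the surrogate light chain, from the minus strand of chromosome 16 (16860671 to 16863985). It was the only one of the 5 genes under 1 FPKM whose label groups did not overlap, on very few reads. The WT libraries had 0.0181, 0.0190 and 0.0335 FPKM, from 1, 1 and 2 reads. The CD40LΔ5 libraries had 0.0511, 0.168 and 0.183 FPKM, from 3, 9 and 11 reads. The means were 0.134 ± 0.0720 FPKM for CD40LΔ5 and 0.0236 ± 0.00865 for WT (SD, n = 3), and the exact two-sided permutation p of 0.1 is the smallest that 3 against 3 can give. Among all genes above 0 and under 1 FPKM, 3% were wholly higher in CD40LΔ5 and 3.02% wholly lower, and the count of 1 in 5 here rests on the 27 reads of Igll1. The exact 95% Poisson interval of each CD40LΔ5 library overlapped those of all WT libraries. At 11 reads it ran from 5.49 to 19.7 reads, against upper bounds of 5.57, 5.57 and 7.22 reads in WT. Overlap between single libraries does not test the groups, which held 23 Igll1 reads for CD40LΔ5 and 4 for WT. By the table the Igll1 groups overlapped, at 0.0683 ± 0.0861 FPKM for MUT and 0.0891 ± 0.0815 for WT (exact permutation p = 0.5). None of the 5 low genes was apart by the table, where 8.84% of such genes were wholly higher and 1.95% wholly lower in MUT. The deposited Igll1 length of 2161 bases is that of a transcript with a retained intron, while the coding transcript has 870 bases, and FPKM depends on the length used.

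Vpreb1 encodes the variable-like part and lies next to Igll1 on the minus strand (16868402 to 16870843). Its values were close together, with 0.212, 0.267 and 0.314 FPKM under the WT label against 0.279, 0.262 and 0.233 FPKM under CD40LΔ5. Each library had 5 to 8 reads, and no difference could be detected at this depth. The exact permutation p was 0.9 by the labels and 0.4 by the table. At its 5′ end, 9.01% of Vpreb1 exonic bases overlap Top3b on the opposite strand, a topoisomerase gene at 14.5 to 21.3 FPKM, and the use of strand in counting is not given in the sources used here.

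**Figure D3:**
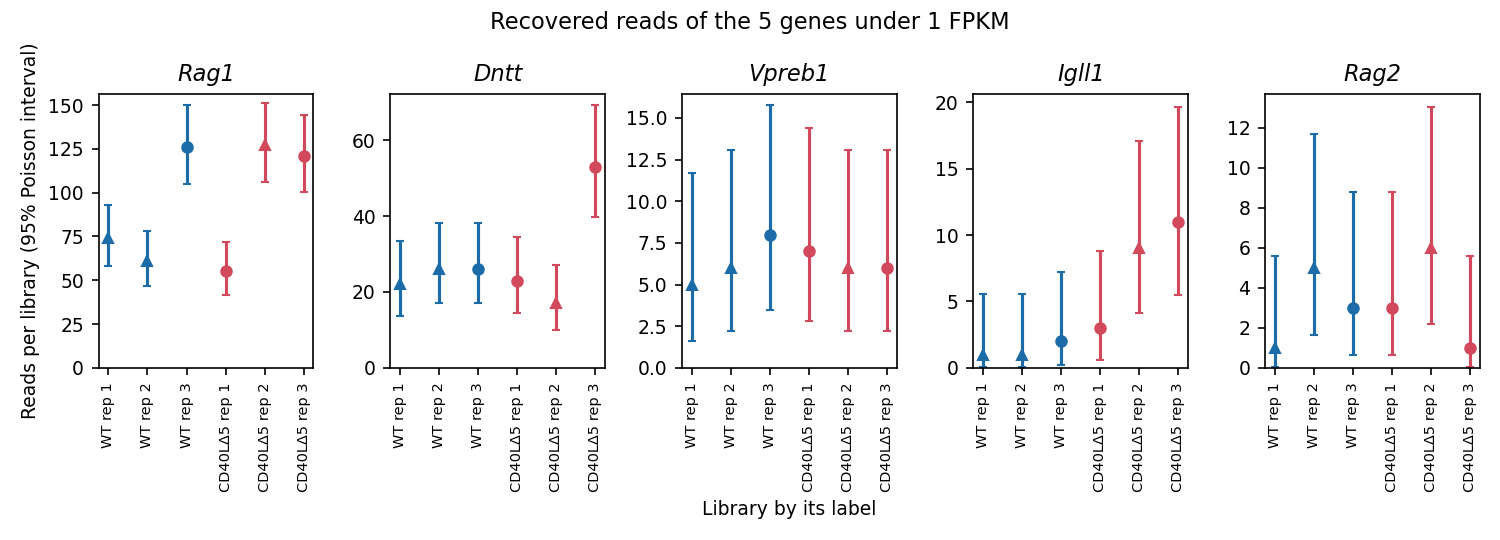
Recovered reads (y axis, from 0) of the 5 genes under 1 FPKM in each library, with exact 95% Poisson intervals for counting error; colours and shapes are as in the plot of levels. Rag1 is high in WT replicate 3 and CD40LΔ5 replicates 2 and 3, Dntt is highest in CD40LΔ5 replicate 3, and Igll1 reaches 9 and 11 reads in CD40LΔ5 replicates 2 and 3.

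Vpreb3 encodes a VpreB-like protein that binds newly made heavy and light chains inside the cell and, unlike Vpreb1, stays on in mature B cells. It ranked 548 of all genes and lies on the plus strand of chromosome 10 (75943057 to 75949657). Vpreb3 measured 129, 107 and 116 FPKM under the WT label and 103, 148 and 105 FPKM under CD40LΔ5. CD40LΔ5 replicate 2 and WT replicate 1, lowest for Cd93, were the highest for Vpreb3. The log2 difference was -0.00 ± 0.16 (SE) by the labels (limma adjusted p = 1.00; 0.04 under quantile normalization) and 0.23 ± 0.13 by the table (limma adjusted p = 0.456), where MUT had 128 ± 20.7 FPKM and WT 108 ± 7.14 FPKM (SD, n = 3). The table groups overlapped, since WT replicate 2 lay below WT replicate 3. Per length, the Vpreb3 level was 369 to 608 times that of Vpreb1 in single libraries.

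Sox4 encodes a transcription factor that B cell precursors need to survive, and Myb one that progenitors need to enter the B lineage and that cycling cells use. Sox4 lies on the minus strand of chromosome 13 (28948919 to 28953713) and Myb on that of chromosome 10 (21124936 to 21160905). Sox4 measured 2.52, 2.48 and 2.74 FPKM under the WT label and 2.25, 3.17 and 3.02 FPKM under CD40LΔ5. The 3 libraries highest for Sox4 were the 3 highest for Rag1, though the steps were small (362 to 404 reads against 289 to 308). The log2 difference of Sox4 was 0.08 ± 0.13 (SE) by the labels (limma adjusted p = 1.00) and 0.02 ± 0.13 by the table (limma adjusted p = 0.959), the latter with the sign turned under quantile normalization (-0.10) and median-of-ratios factors (-0.02). Of stretches of 50 bases in Sox4, 54.1% also lie in Gm26735, a non-coding gene on the opposite strand that was listed at 0 reads in all libraries. How reads in that stretch were counted is not given in the sources used here, so the level of Sox4 is uncertain.

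Myb measured 8.54, 6.86 and 8.19 FPKM under the WT label and 5.84, 7.44 and 8.29 FPKM under CD40LΔ5. CD40LΔ5 replicate 1 was lowest, although its cell cycle sum (484 FPKM) was the second highest. The log2 difference was -0.12 ± 0.14 (SE) by the labels (limma adjusted p = 1.00) and 0.04 ± 0.14 by the table (limma adjusted p = 0.927), the latter with the sign turned under quantile normalization (-0.02) and median-of-ratios factors (-0.01). The groups overlapped in both comparisons.

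Across the set, 0 of the 5 tested genes passed an adjusted p of 0.05 in either comparison. Over all 11252 tested genes, limma called 0 (0%) by the labels and 3 (0.0267%) by the table. At an unadjusted p under 0.05 there were 139 and 1463 genes, and of the 5 only Cd93 by the table was among them. limma voom on recovered reads called 0 and 1 genes.

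**Figure D4:**
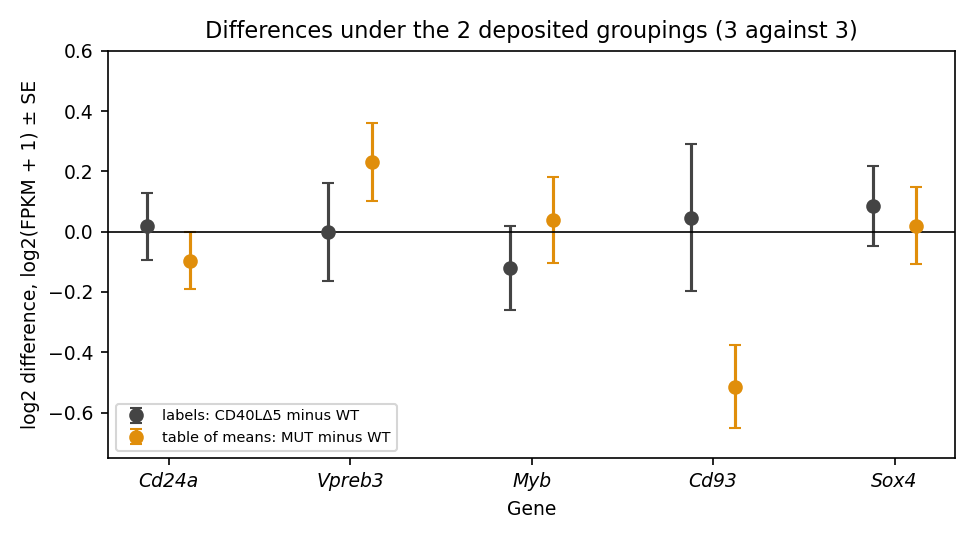
Log2 difference on the log2(FPKM + 1) scale, with its standard error from limma, of the 5 tested genes, by the labels (CD40LΔ5 minus WT) and by the table of means (MUT minus WT), 3 libraries against 3. All differences lie within 0.25 of 0 except that of Cd93 by the table, at -0.51.

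The genes that act around this set in early B cells were largely present. Of 22 tested early B lineage genes, 14 were higher and 8 lower by the labels (median log2 difference 0.05, against 0.01 over all tested genes), and 10 higher and 12 lower by the table (median -0.01, against 0.05), with 0 called in both. The transcription factors Ebf1 (39.5 to 53.0 FPKM) and Pax5 (171 to 211 FPKM), which drive the surrogate light chain genes in precursors, were well expressed in libraries where Vpreb1 and Igll1 were near 0. Il7r, the receptor of the cytokine that sustains mouse precursors, stood at 2.20 FPKM in MUT and 1.59 FPKM in WT by the table (log2 difference 0.32 ± 0.14 SE; limma adjusted p = 0.399), wholly higher in MUT as were 12.1% of all tested genes. Runx1, a transcription factor of blood progenitors, stood at 13.5 FPKM in MUT and 15.5 FPKM in WT (log2 difference -0.19 ± 0.09 SE; limma adjusted p = 0.424), wholly lower as were 4.79% of them. Bach2, a repressor of plasma cell fate, stood at 29.9 FPKM in CD40LΔ5 and 25.3 FPKM in WT by the labels (log2 difference 0.24 ± 0.10 SE; limma adjusted p = 1.00), wholly higher as were 2.98% of all tested genes, and had the smallest p of the 22 by the labels. Chchd10, another gene of the list, measured 82.6 to 98.5 FPKM.

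The list of V(D)J joining and end repair partners, which also holds cofactors of RAG cutting such as Hmgb1, was tested in full, at means from 2.53 FPKM for Xrcc4 to 108 FPKM for Hmgb1. Of the 17 genes, 12 were higher and 5 lower by the labels (median 0.06) and 5 higher and 12 lower by the table (median -0.08), with 0 called. Dclre1c, the Artemis nuclease that opens coding ends, was at 2.64 to 5.14 FPKM, and Lig4, the ligase of this pathway, at 2.70 to 3.69 FPKM. H2afx, a histone gene, had the smallest p of the list by the table, at 52.7 FPKM in MUT and 77.5 FPKM in WT (log2 difference -0.54 ± 0.19 SE; limma adjusted p = 0.356). It was lowest in WT replicate 1 and CD40LΔ5 replicate 2, at 49.9 and 44.9 FPKM, the libraries lowest for the cell cycle list. A link between them was not tested. By the labels the smallest p of the list was that of Atm, a kinase that senses broken ends, at 9.88 FPKM in CD40LΔ5 and 7.93 FPKM in WT (log2 difference 0.28 ± 0.10 SE; limma adjusted p = 1.00). Rad50 and Prkdc followed, with log2 differences of 0.22 and 0.22 (limma adjusted p = 1.00 for each). These 3 were wholly higher in CD40LΔ5, as were 2.98% of all tested genes.

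Genes of mature follicular B cells, such as Fcer2a and Cr2, summed to 3227 to 3760 FPKM. Of 16 tested, 11 were higher by the labels (median 0.02) and 14 by the table (median 0.11), with 0 called. Cd38 measured 129 FPKM in MUT and 102 FPKM in WT by the table (log2 difference 0.33 ± 0.14 SE; limma adjusted p = 0.388). Marginal zone genes were higher in 4 of 10 by the labels (median -0.06) and in 8 of 10 by the table (median 0.22), with 0 called. Among markers of stem and progenitor cells, Kit was at 1.51 to 3.42 FPKM and Mecom at 0.00707 to 0.0388 FPKM. The most abundant gene of that list was Ly6a, at 181 to 378 FPKM, which activated lymphocytes also express.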

How the data were processed

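RNA of 6 spleen B cell samples, 3 per genotype, was made into libraries with an Illumina TruSeq kit (1 µg input each), per the labels' protocols, which do not speak of strand. CASAVA 1.8.2, STAR, DESeq2 and the build mm9 appear, with no role given, in the submitters' processing notes, while the gene coordinates in the files are those of GRCm38. The authors deposited FPKM per gene and library and a table of FPKM means. FPKM times the deposited gene length gave whole reads for 100% of values above 0 (tolerance 0.01 reads). 1 read is worth 0.0359 to 0.0411 FPKM for a gene of 1 kb.

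Groups were taken from the labels and, as a second comparison, from the table of means, whose columns equal means of 3 libraries to within 3.33e-08 FPKM. limma 3.58.1 in R 4.3.3 was run on log2(FPKM + 1) with a trended prior, without covariates, over the 11252 genes whose mean reached 1 FPKM (5 of the 10). Its two-sided p-values were adjusted by Benjamini-Hochberg over these genes, and calls needed an adjusted p under 0.05. The 5 genes under that level had exact permutation tests of mean FPKM (scipy 1.17.1). The procedure was tested on simulated data. Related genes came from 15 lists with 203 of 208 entries found, of which up to 3 of smallest p and the 2 most abundant could be named; other names were chosen after their values were seen. A rule to name genes with a like pattern asked for a span of at least 2-fold in a tested gene, which none had. The 10 genes and all lists were chosen with earlier results of these data known. The alternatives changed the pseudocount, the filter, the scaling or the prior variance, or used voom, a replicate block, immunoglobulin genes left out, and each library left out.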

Additional observations from a re-analysis of the deposited data

How the results depend on the processing

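No gene of the set was called under any alternative in either comparison. The count over all genes by the table, 3, became 5 with a pseudocount of 0.1, 5 without immunoglobulin genes, 1 without a filter, 1 under quantile normalization, 1 with voom, 0 with a minimum of 5 FPKM, and 1 to 16 when 1 library was left out (13 without WT replicate 2, 16 without CD40LΔ5 replicate 1, 1 without CD40LΔ5 replicate 2). By the labels it was 0 in all but the comparison of the 4 libraries that both sources split alike, under opposite names (2). The cause was not tested. The replicate block left 0 genes called, and Cd93 at 0.05 (adjusted p = 1.00). Same-numbered libraries deviated with correlations of -0.385, 0.0578 and 0.376, and differently numbered ones with -0.634 to 0.564. So few values cannot decide whether libraries were paired by number.

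The sign of small differences depended on single libraries or scaling. By the labels Vpreb3 became 0.0425 under quantile normalization and Cd24a -0.00827 with median-of-ratios factors. By the table Cd24a became 0.12, Sox4 -0.10 and Myb -0.0231 under quantile normalization, and Sox4 -0.0168 and Myb -0.00521 with median-of-ratios factors. With 1 library left out, log2 differences by the labels ran from -0.17 to 0.24 (Cd93), -0.0533 to 0.0586 (Cd24a), -0.17 to 0.0897 (Vpreb3) and -0.22 to 0.00359 (Myb), and by the table from -0.0648 to 0.0896 (Sox4) and -0.11 to 0.11 (Myb). Mean FPKM differences ran by the labels from -0.0214 to 0.212 (Rag1), -0.0131 to 0.0170 (Rag2), -0.0327 to 0.0183 (Vpreb1) and -0.0904 to 0.196 (Dntt), and by the table from -0.143 to 0.0547 (Rag1) and -0.0705 to 0.0260 (Igll1). Sox4 and Igll1 by the labels, and Cd93, Vpreb3, Dntt, Rag2 and Vpreb1 by the table, kept their sign throughout. For Igll1 by the labels and Cd93 by the table the groups did not overlap, so leaving out 1 library could not turn the sign. Rag2, Vpreb1 and Igll1 rest on 1 to 11 reads per library, so counting error limits them.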
